A study of Macaca mulatta with 4 samples.

Results

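The 8 genes described here were grouped beforehand as Purkinje calcium handling genes: ITPR1, CA8, RYR1, CALB1, PVALB, CALB2, PCP4 and PPP1R17. The group name does not describe each gene in these data, where CALB2 had no UMI in Purkinje nuclei. The 8 genes were chosen by name from the 30807 genes in the deposited gene list, with no threshold on a measured value, though earlier results of these data were known. Of the 8, 7 were found by their symbol. CALB2 stood in the list without a symbol and was found by its Ensembl identifier, ENSMMUG00000008403. The counts came from single nuclei of the cerebellum of 4 rhesus macaque fetuses, with 1 library per fetus. The Control fetuses, a female and a male, were both 130 days of gestational age and received no intervention. The LPS fetuses, a male of 133 days and a female of 131 days, were exposed to 1 mg of lipopolysaccharide, a bacterial cell wall component, injected into the amniotic fluid 5 days before delivery as a model of chorioamnionitis. Each sex gave 1 fetus per group. Barcodes were kept as nuclei where 500 or more genes were found and mitochondrial genes gave no more than 5% of the counts, which left 32565. They held 53435 unique molecular identifiers (UMIs, counted RNA molecules) of the 8 genes.

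Purkinje cells are the large output neurons of the cerebellar cortex. Glutamate from parallel fibers acts on their metabotropic receptors and makes inositol trisphosphate (IP3), which opens the IP3 receptor ITPR1 on the endoplasmic reticulum. CA8, a carbonic anhydrase relative without enzyme activity, binds this receptor and lowers its affinity for IP3, and RYR1 is a ryanodine receptor that releases calcium from the same store. Calbindin (CALB1), parvalbumin (PVALB) and calretinin (CALB2) buffer free calcium, PCP4 binds calmodulin, and PPP1R17 is a phosphatase inhibitor that is switched on by cGMP-dependent protein kinase.

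The 4 libraries held between 34282015 and 61665690 UMIs. They fell apart by sex and not by exposure. Median depth was 4508 and 4063 UMIs per nucleus in Control female and LPS female, and 1882 and 2308 in Control male and LPS male. Mitochondrial counts averaged 0.264 and 0.212% of the UMIs of a nucleus in the females and 0.0214 and 0.0318% in the males. Nuclei held 73.9% of all UMIs in each female library, 58.7% in Control male and 38.7% in LPS male. A cluster of 2461 nuclei of low depth, without a name, held 1884 nuclei of LPS male. Of the barcodes kept, 110 occurred in more than 1 library.

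Purkinje nuclei formed a single cluster of 118 nuclei, with 27 in Control female, 54 in Control male, 15 in LPS male and 22 in LPS female. A marker score per nucleus, used as an alternative, named 277 Purkinje nuclei, of which 117 lay in this cluster. The 8 genes and the 56 genes of 3 calcium lists were kept out of the integration, the clustering and the marker lists, so that none of them shaped the classes. The cluster was led by KLHL1, ARHGEF33, EPHA5 and ARHGAP26, and 11 of 13 detected Purkinje markers were raised in it. Levels are in CPM, the UMIs of a gene scaled by the total UMIs of its class in that library. Not every marker was particular to the cluster: SKOR1 reached 245.3 CPM in another neuronal class against 15.3 to 89.6 in Purkinje sums, and EBF1 reached 2503 against 1433 to 4069. The transcription factor SKOR2 lay between 105.9 and 324.8 CPM in its 4 sums and at most at 2.94 in any sum of another neuronal class. LHX1, another Purkinje marker, was near the limit of detection in every library, at 1.62, 12.8, 0 and 0 CPM in Control female, Control male, LPS male and LPS female. Purkinje nuclei were deep, with a median of 10429 UMIs. The comparison classes were 311 molecular layer interneurons, 198 Golgi cells, 1108 PAX2+ interneurons, 75 unipolar brush cells and 23108 nuclei of the granule lineage. Gene lengths were not used here, so each gene was compared only with itself.

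ITPR1 was far higher in Purkinje nuclei than in every class compared. Its level was 14235 CPM in Control female, 12677 in Control male, 14723 in LPS male and 13574 in LPS female, a mean of 13802 ± 886 (SD, n = 4). These 4 values lay close together. In molecular layer interneurons ITPR1 was at 31.6, 69.0, 135.3 and 8.97 in the same order of libraries. Purkinje nuclei exceeded them by 8.10 ± 0.40 on the log2 scale (SE; edgeR, adjusted p = 7.8e-19). The excess over Golgi cells was 9.14 ± 0.43, over PAX2+ interneurons 8.78 ± 0.40, over unipolar brush cells 9.43 ± 0.50 and over the granule lineage 8.25 ± 0.40. Purkinje nuclei were 0.362% of all nuclei and held 76.1% of the ITPR1 UMIs counted in nuclei.

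CA8, the inhibitor that binds ITPR1, was at 2198 in Control female, 1067 in Control male, 700.3 in LPS male and 1962 in LPS female in Purkinje nuclei. Both male libraries were below both female libraries. In molecular layer interneurons the level was between 2.22 and 12.2, and the difference was 7.87 ± 0.47 on the log2 scale (adjusted p = 1.1e-16). The difference was 7.02 ± 0.42 against Golgi cells, 8.80 ± 0.43 against PAX2+ interneurons, 7.07 ± 0.57 against unipolar brush cells and 7.53 ± 0.35 against the granule lineage. Unipolar brush cells held 5 CA8 UMIs, only in Control male and LPS female, where the ratios within the library were 24.9 and 27.8. Of all CA8 UMIs in nuclei, 65.3% came from Purkinje nuclei.

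RYR1 was shared with other inhibitory neurons. In Purkinje nuclei it was at 1100 in Control female, 3059 in Control male, 4349 in LPS male and 746.0 in LPS female. In molecular layer interneurons it was at 489.5, 1290, 2016 and 349.9 in the same order. The levels of both classes overlapped across libraries, but within each library Purkinje nuclei were higher, by a ratio between 2.13 and 2.37. With the fetus as a replicate block the difference was 1.13 ± 0.19 on the log2 scale (adjusted p = 6.2e-06), and without the block it was the same size with an adjusted p of 0.21, so that call needs the block. Golgi cells had 133.6, 566.4, 498.4 and 115.6, and PAX2+ interneurons had 40.2, 148.1, 207.7 and 60.1. The difference of Purkinje nuclei was 2.84 ± 0.20 against Golgi cells, 4.41 ± 0.21 against PAX2+ interneurons, 8.08 ± 0.42 against unipolar brush cells and 6.91 ± 0.24 against the granule lineage. Unipolar brush cells held 4 RYR1 UMIs, none in the Control libraries, and the ratios within LPS male and LPS female were 267.6 and 42.2. Purkinje nuclei gave 34.0% of the RYR1 UMIs and molecular layer interneurons 20.3%. Of the 8079 RYR1 UMIs in nuclei, 970 came from 225 nuclei led by NXPH1 and TAFA1 that scored alike for Golgi cells and molecular layer interneurons and were left unnamed (cluster 17), with 382.9, 1025, 1148 and 311.5 CPM.

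**Figure D1:**
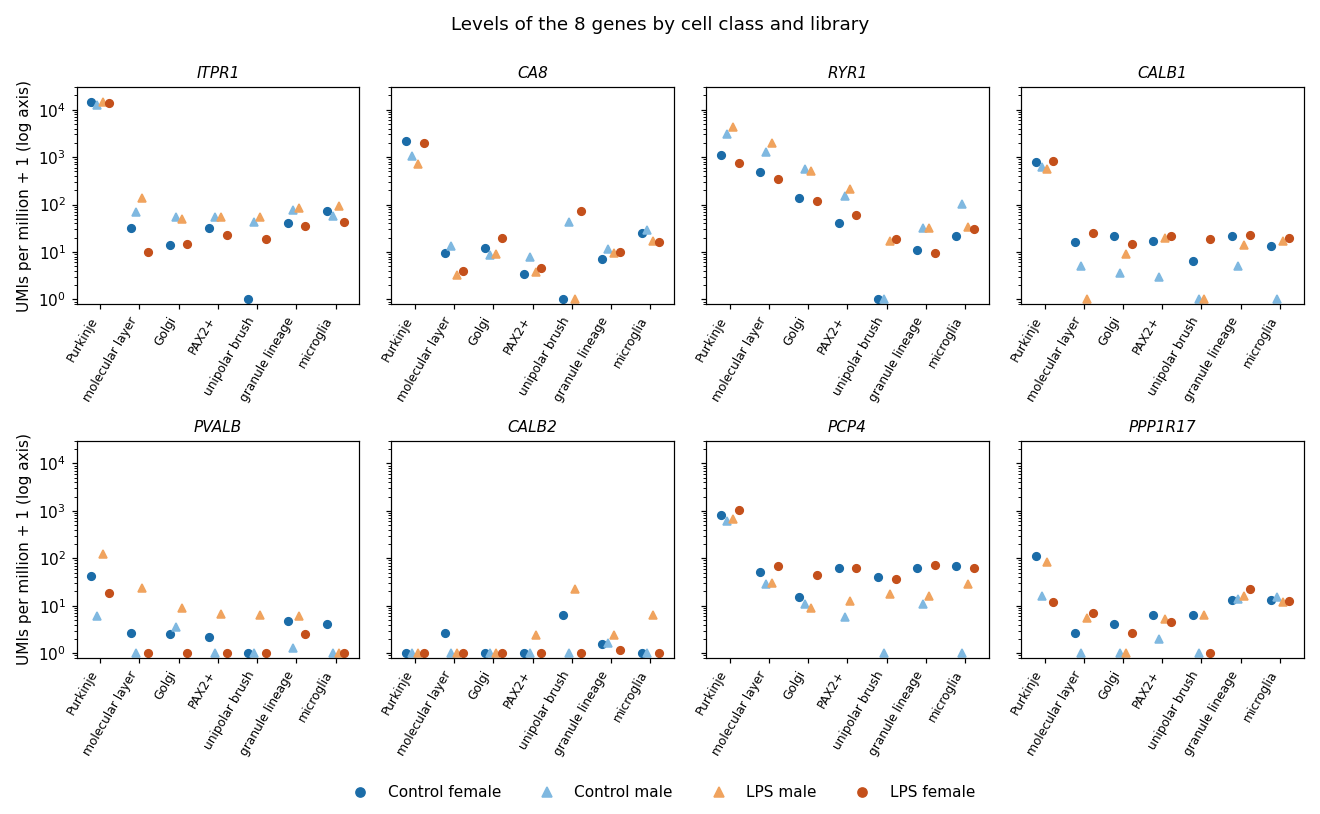
Levels of the 8 genes in 7 cell classes, as CPM plus 1 on a log axis, with 1 point per library (circles female, triangles male, blue Control, orange LPS). ITPR1, CA8, CALB1 and PCP4 stand above every other class shown in all 4 libraries, RYR1 falls in steps from Purkinje nuclei to molecular layer interneurons and Golgi cells, and CALB2 has no UMI in Purkinje nuclei.

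CALB1, the classical calcium buffer of Purkinje cells, was at 778.2 in Control female, 629.2 in Control male, 553.7 in LPS male and 833.5 in LPS female. Its mean of 698.7 ± 129.5 (SD, n = 4) exceeded molecular layer interneurons by 6.20 ± 0.35 on the log2 scale (adjusted p = 2.1e-17). The differences from Golgi cells, PAX2+ interneurons and the granule lineage were 6.01 ± 0.34, 5.97 ± 0.28 and 5.87 ± 0.28. Unipolar brush cells held 2 CALB1 UMIs, a ratio of pooled levels of 165.2 with an exact 95% counting interval of 45.6 to 1365. The granule lineage, 71% of nuclei, had levels of 20.8, 4.02, 13.1 and 22.3 and gave 44.5% of the CALB1 UMIs in nuclei against 36.7% from Purkinje nuclei. Free RNA held 121.8, 28.8, 51.3 and 165.2 CPM of CALB1, and it made up an estimated 13.3, 13.5, 19.1 and 12.5% of the UMIs of the granule lineage, so these UMIs are not shown to come from granule cells. With free RNA subtracted, the difference of Purkinje nuclei from the granule lineage was 8.22 ± 0.46.

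PVALB was scarce in these nuclei, with 50 UMIs over all Purkinje nuclei. Its level was 40.6 in Control female, 5.12 in Control male, 122.1 in LPS male and 17.5 in LPS female, and these values rest on 25, 2, 15 and 8 UMIs. In LPS male the Purkinje marker PCP2 was also highest, at 1287 against 118.1 to 261.6 in the other libraries, and so was the sum of 12 granule lineage markers in Purkinje nuclei, at 1702 against 260.3 to 516.7. Their part in the PVALB level was not tested. Molecular layer interneurons held 11 PVALB UMIs, 10 of them in LPS male, PAX2+ interneurons 6, Golgi cells 3 and unipolar brush cells 1. The ratio of the pooled level of Purkinje nuclei was 4.68 to molecular layer interneurons (exact 95% counting interval 2.40 to 9.96), 23.6 to PAX2+ interneurons (10.1 to 67.5), 18.4 to Golgi cells (5.93 to 92.0) and 14.1 to unipolar brush cells (2.41 to 566.6). These intervals cover counting error only. Within libraries the ratio to molecular layer interneurons was 24.4 in Control female and 5.51 in LPS male, both above the pooled ratio. Control male and LPS female had no PVALB UMI in these interneurons. PVALB was called higher in these 4 comparisons, but it passed the filter on low counts through the Purkinje sums, and it failed the filter without LPS male, so its calls are not read as support. Without the block the call against molecular layer interneurons was lost, at an adjusted p of 0.1002 by edgeR against a limit of 0.1. Purkinje nuclei held 11.3% of the PVALB UMIs in nuclei and the granule lineage 53.4%.

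CALB2 gave no UMI in Purkinje nuclei, 0 of 118 nuclei, which allows a share of up to 2.54% with a UMI by the floor of 3 counts and of 3.08% by the exact interval. It had 72 UMIs in all nuclei, and whether the annotation holds its whole 3' end, where these libraries are read, was not checked here. Of the 72, 52 lay in the granule lineage, which is 72.2% of the UMIs in 71% of the nuclei, with 15 in committing and 0 in mature granule cells, and 6 lay in cluster 17. Unipolar brush cells, a glutamatergic interneuron of the granular layer that often contains calretinin, had 5 UMIs in 75 nuclei, and 5 of them (6.67%, exact Clopper-Pearson 95% interval 2.20 to 14.9%) had a UMI. Of these nuclei 4 came from LPS male, and without that library the share was 1 of 38 nuclei (2.63%, 0.0666 to 13.8%). The interval covers counting error only. In microglia, which should lack it, 1 of 263 nuclei (0.380%, 0.00963 to 2.10%) had a UMI, at a median depth of 3299 UMIs against 5632 in unipolar brush cells. After thinning to 1000 UMIs per nucleus, neither class had a nucleus with a UMI. The gene failed the filter on low counts in every comparison of classes. Without that filter CALB2 was called lower in Purkinje nuclei than in unipolar brush cells, and this call rests on the 5 UMIs of unipolar brush cells.

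PCP4, the calmodulin regulator, was at 807.5 in Control female, 598.5 in Control male, 667.8 in LPS male and 1028 in LPS female. It exceeded molecular layer interneurons by 4.45 ± 0.36 on the log2 scale (adjusted p = 7.2e-13), and the differences from the other 4 classes lay between 4.82 ± 0.28 for the granule lineage and 5.67 ± 0.41 for Golgi cells. Purkinje nuclei held 19.0% of the PCP4 UMIs in nuclei, and the granule lineage, 71% of nuclei, held 58.2%. Much PCP4 lay outside nuclei. Barcodes with more than 100 UMIs and fewer than 500 genes had 695.3 CPM in Control female and 1055 in LPS female, near the level of Purkinje nuclei, and 39.3 and 69.9 in Control male and LPS male. Free RNA, taken from barcodes of at most 100 UMIs, showed the same order with 404.9 and 629.5 in the females and 26.4 and 67.6 in the males. In the granule lineage PCP4 was at 61.4 and 71.5 in the females and 10.1 and 14.7 in the males. The part of free RNA in these levels was not tested directly, and the differences of Purkinje nuclei kept their side of the limit with free RNA subtracted.

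**Figure D2:**
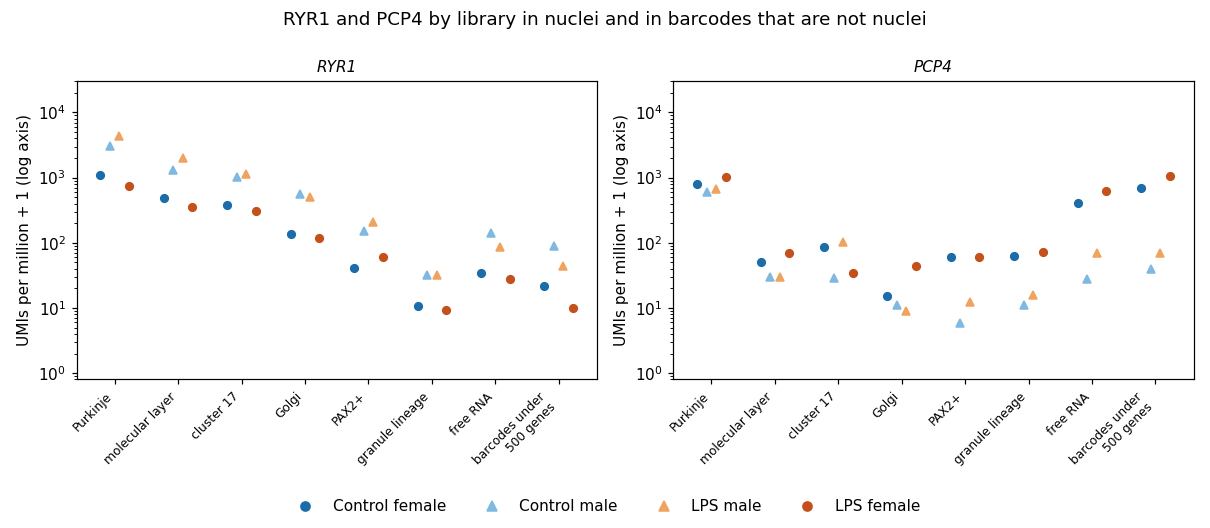
RYR1 and PCP4 by library (CPM plus 1, log axis) in Purkinje nuclei, molecular layer interneurons, cluster 17, Golgi cells, PAX2+ interneurons and the granule lineage (unipolar brush cells are not drawn), in free RNA (barcodes of at most 100 UMIs) and in barcodes of more than 100 UMIs with fewer than 500 genes. RYR1 is higher in the male libraries (triangles) in every column drawn, and PCP4 outside nuclei is higher in the female libraries (circles).

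PPP1R17, the substrate of cGMP-dependent protein kinase, was low and uneven in Purkinje nuclei. It was at 110.5 in Control female, 15.3 in Control male, 81.4 in LPS male and 10.9 in LPS female, from 68, 6, 10 and 5 UMIs. The libraries of neither group nor sex stood together. It exceeded molecular layer interneurons, with 5 UMIs, by 4.27 ± 0.70 and PAX2+ interneurons, with 17, by 4.04 ± 0.51 on the log2 scale (edgeR, adjusted p = 5.4e-06 and 2.0e-08). Golgi cells held 3 UMIs and unipolar brush cells 2, for ratios of pooled levels of 32.7 (exact 95% counting interval 10.8 to 161.5) and 12.5 (3.37 to 105.0). Control female held 68 of its 89 UMIs in Purkinje nuclei. Without Control female the differences from molecular layer interneurons and PAX2+ interneurons were 2.72 ± 0.68 and 3.13 ± 0.57, and both were still called. Within libraries the ratio to molecular layer interneurons ran from 1.83 in LPS female to 66.4 in Control female, and the ratio to PAX2+ interneurons from 3.09 in LPS female to 20.2 in Control female. Purkinje nuclei, 0.362% of all nuclei, held 4.20% of the PPP1R17 UMIs, and 59.6% lay in the granule lineage, which is 71% of nuclei.

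Against Golgi cells, molecular layer interneurons, PAX2+ interneurons and unipolar brush cells, 7 of the 8 genes passed the filter on low counts and all 7 were called higher in Purkinje nuclei at an adjusted p under 0.1 and a log2 fold change over 0.25. Of all genes tested, 15.9, 16.3, 24.9 and 15.3% were called higher in the same comparisons, and 31.9, 32.9, 51.3 and 27.9% in either direction. The filter keeps a gene that reaches the minimum in Purkinje sums alone, so the count over the genes that passed is a description. Against the granule lineage summed as 1 class, CALB2, PPP1R17 and PVALB failed the filter and the other 5 were called higher, with 27.3% of all genes called higher and 56.6% in either direction. In a fit without the filter PVALB differed from the granule lineage by 3.71 ± 0.38 and PPP1R17 by 1.61 ± 0.26 on the log2 scale. These SEs rest on a spread shared by all classes in the fit, and the libraries differed widely for PPP1R17. The ratio of PPP1R17 within libraries was 8.97 in Control female, 1.18 in Control male, 5.51 in LPS male and 0.518 in LPS female, where Purkinje nuclei were the lower class.

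Single nuclei were counted next. Of 118 Purkinje nuclei, 117 had a UMI of ITPR1, 117 of RYR1, 114 of CA8, 111 of CALB1, 109 of PCP4, 34 of PPP1R17 and 27 of PVALB. At least 5 of the 8 genes were found in 104 Purkinje nuclei (88.1%), in none of the interneurons or unipolar brush cells, and in 2 of 23108 nuclei of the granule lineage. Since Purkinje nuclei were deeper, each nucleus was thinned to 1000 UMIs, which left out 1 Purkinje nucleus and 12 of 263 microglia. After thinning, ITPR1 was found in 99.1% of Purkinje nuclei (95.3 to 100%), RYR1 in 82.9% (74.8 to 89.2%), CA8 in 70.9% (61.8 to 79.0%), CALB1 in 46.2% (36.9 to 55.6%) and PCP4 in 45.3% (36.1 to 54.8%). The shares in thinned microglia were 7.97, 5.58, 1.99, 0.797 and 2.79%. PPP1R17 was found in 6.84% (3.0 to 13.0%) of thinned Purkinje nuclei and 0.797% (0.0966 to 2.85%) of thinned microglia. Of the 8 thinned Purkinje nuclei with a UMI, 6 came from Control female, and without that library the share was 2 of 91 (2.20%, 0.267 to 7.71%), which cannot be told from that of microglia. Without Control male it was 7 of 63 (11.1%, 4.59 to 21.6%). For PVALB the shares were 1.71% (0.208 to 6.04%) and 0.398% (0.0101 to 2.20%), which cannot be told from background at this depth. RYR1 was found in 60.3% (54.5 to 65.8%) of thinned molecular layer interneurons and in 27.3% (21.2 to 34.0%) of thinned Golgi cells, both above the 5.58% of microglia. Without Control male the share of Golgi cells was 14.3% (8.39 to 22.2%), against 2.17% (0.595 to 5.47%) of microglia. These shares without a library were computed after the values by library were seen.

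Within the granule lineage, 3 of the 7 genes tested were called between mature granule cells and proliferating precursors, where 59.9% of all genes were called. PPP1R17 was at 40.8, 27.6, 60.9 and 45.9 CPM in proliferating precursors of Control female, Control male, LPS male and LPS female. In committing granule cells it was at 48.1, 50.7, 71.2 and 68.8, in migrating cells between 13.5 and 26.5, and in mature granule cells at 3.68, 2.16, 3.19 and 5.39. The early and late stages did not overlap. Mature granule cells were below proliferating precursors by 3.40 on the log2 scale (−3.40 ± 0.39, adjusted p = 1.4e-09). In Purkinje nuclei PPP1R17 was below the committing granule cells of the same library in 2 of 4 libraries.

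CA8 and RYR1 moved the other way. CA8 was higher in mature granule cells than in proliferating precursors by 2.51 ± 0.55 (adjusted p = 0.00016), with 9.41, 15.1, 9.36 and 24.9 against 1.31, 5.09, 2.86 and 4.54 CPM. RYR1 was higher by 1.72 ± 0.26 (adjusted p = 5.2e-07), with 30.3, 69.1, 37.9 and 16.2 against 6.53, 22.6, 23.8 and 7.02. The levels of both genes in mature granule cells stayed far below those of Purkinje nuclei. ITPR1, CALB1, PCP4 and PVALB were not called, with log2 fold changes of 0.15 ± 0.32, 0.52 ± 0.32, 0.57 ± 0.33 and 0.31 ± 0.53. In this comparison 2 of the 7 genes tested were called higher and 1 lower, where 30.9% of all genes were called higher and 29% lower (59.9% in all). With free RNA subtracted, CALB1 (3.64 ± 0.92) and PCP4 (6.93 ± 1.46) were also called higher, which made 4 higher and 1 lower. In proliferating precursors the estimated free RNA covered the whole PCP4 level in each library, and most or all of the CALB1 level. Subtraction thus left little or nothing of CALB1 and PCP4 in precursors, and their fold changes after it are not read as sizes of a change. Without the filter 3 members were called higher and 2 lower. The count of members is therefore not read against the background. Of the 2618 mature granule cells, 1439 came from LPS male.

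**Figure D3:**
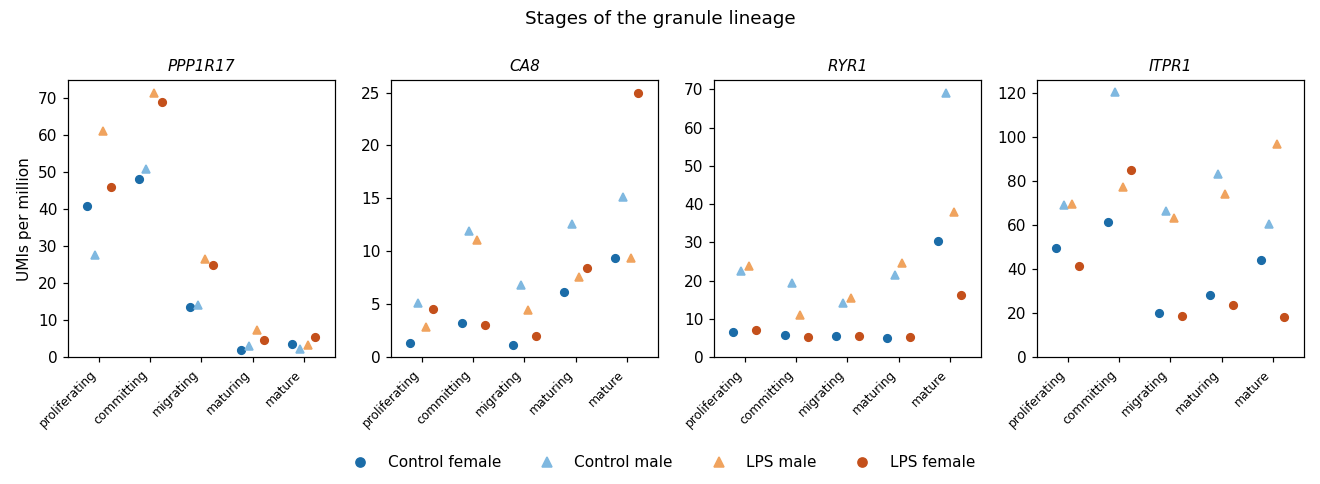
PPP1R17, CA8, RYR1 and ITPR1 in 5 stages of the granule lineage, in CPM, with 1 point per library (circles female, triangles male, blue Control, orange LPS). PPP1R17 is highest in proliferating and committing cells, the means of CA8 and RYR1 are highest in mature cells, and ITPR1 shows no such order.

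LPS was compared with Control in Purkinje nuclei to ask whether exposure moved the calcium genes. None of the 8 was called. In this comparison edgeR called 0 of 6482 genes (0%), with 29 genes at an unadjusted p under 0.05, and DESeq2 called 0 with 22 such genes. The log2 fold changes of LPS against Control were 0.01 ± 1.06 for ITPR1, −0.36 ± 0.84 for CA8, 0.26 ± 0.95 for RYR1, −0.07 ± 0.63 for CALB1, 1.16 ± 1.10 for PVALB, 0.21 ± 0.65 for PCP4 and −0.96 ± 1.11 for PPP1R17, each with an adjusted p of 0.9999. CALB2 had no UMI. The standard errors lay between 0.63 and 1.11 on the log2 scale, so small changes could not be seen. They were derived from the fold change and the F value of the test, which draws on a spread shared across genes. They are thus not the spread of each gene alone. The 4 levels of ITPR1 lay close together, at 13802 ± 886 CPM (SD, n = 4). Here and in the other classes the LPS fit had no term for sex, so differences between the sexes within a group counted as error. With the replicate block by sex edgeR also called 0 genes in Purkinje nuclei, with 99 at an unadjusted p under 0.05. The absence of calls does not show that levels were unchanged. All 7 genes with UMIs overlapped between groups, while the groups did not overlap in 19.9% of the 7973 genes with at least 20 UMIs in Purkinje nuclei.

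Within females, LPS minus Control (log2 of CPM plus 1) was −0.07 for ITPR1, −0.16 for CA8, −0.56 for RYR1, 0.10 for CALB1 and 0.35 for PCP4. Within males it was 0.22, −0.61, 0.51, −0.18 and 0.16. CA8 was lower and PCP4 higher in the LPS fetus of both sexes, and ITPR1, RYR1 and CALB1 had opposite signs. Each sex has 1 fetus per group, and the share of all genes with agreeing signs was not counted. The agreement for CA8 and PCP4 is therefore not read as an effect of LPS. PVALB and PPP1R17 also had opposite signs, at −1.17 and 4.33 and at −3.22 and 2.33, from as few as 2 and 5 UMIs in a library.

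**Figure D4:**
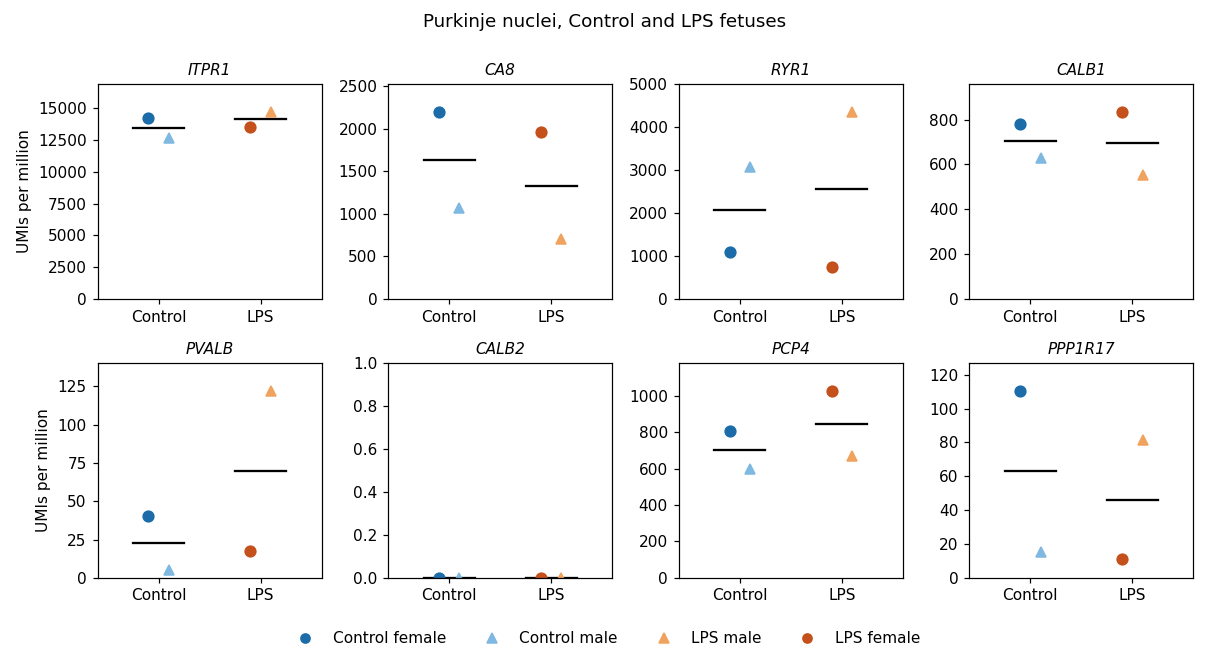
Levels of the 8 genes in Purkinje nuclei of each fetus, in CPM on linear axes from 0, with the mean of each group as a black line (circles female, triangles male). The Control and LPS points overlap in every panel, and CALB2 is at 0 in all 4 fetuses.

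The split by sex was wider than the split by exposure for RYR1. In Purkinje nuclei its mean was 923 CPM in the 2 female and 3704 in the 2 male libraries, a ratio of 4.01. The same ratio was 3.94 in molecular layer interneurons, 4.27 in Golgi cells, 3.55 in PAX2+ interneurons and 3.41 in the granule lineage, and 3.73 in free RNA. Both male libraries exceeded both female libraries in each of them. In unipolar brush cells, with 4 UMIs in all, the sexes overlapped. CA8, PCP4 and CALB1 went the other way in Purkinje nuclei, where both female libraries exceeded both male libraries and the female mean was 2.35, 1.45 and 1.36 times the male mean. The sexes overlapped for ITPR1, PVALB and PPP1R17. For ITPR1 both male libraries were higher in each other neuronal class compared and in free RNA. The male to female ratio was 5.03 in molecular layer interneurons, 3.85 in Golgi cells, 2.00 in PAX2+ interneurons and 2.15 in the granule lineage. It was 5.49 in unipolar brush cells, from 12 UMIs in all, and 2.68 in free RNA. This order did not hold everywhere. In cluster 17 Control male (28.0 CPM) lay below Control female (31.4 CPM). The sexes also overlapped in committing granule cells, fibroblasts, endothelial mural cells, microglia and proliferating glia. In choroid or ependymal cells both female libraries were higher, with as few as 2 nuclei in a library. Male libraries were both higher for 31.9% of the 7973 genes with at least 20 UMIs in Purkinje nuclei, and female libraries for 21.4%. The sex of the fetus, the depth of its library, its mitochondrial share, the share of UMIs in nuclei and the makeup of its free RNA changed together and cannot be told apart.

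In the other classes LPS against Control was not called for any of the 8 genes either. With all 4 libraries the background was 0% in molecular layer interneurons, Golgi cells, PAX2+ interneurons, unipolar brush cells, the granule lineage and all nuclei together. edgeR gave between 14 and 37 genes at an unadjusted p under 0.05 in these classes, and DESeq2 called none and gave between 3 and 64. In unipolar brush cells no member passed the filter on low counts. No member with at least 20 UMIs stood apart between the groups in Golgi cells or molecular layer interneurons, and none reached 20 UMIs in unipolar brush cells, where 18.9, 20 and 24.3% of such genes stood apart. In the granule lineage PPP1R17 was at 12.3 and 13.1 CPM in the Control libraries and at 14.8 and 21.1 in the LPS libraries, and the groups did not overlap, as was so for 12.8% of the 16295 genes with at least 20 UMIs. Its log2 fold change was 0.50 ± 0.35 (adjusted p = 0.9999). In all nuclei together PPP1R17 was at 17.2 and 15.01 in Control and 18.4 and 20.5 in LPS and also did not overlap, with a background of 13.4% and a log2 fold change of 0.28 ± 0.32 (adjusted p = 1.0). CALB1 in PAX2+ interneurons, at 15.8 and 1.96 in Control and 18.4 and 21.2 in LPS, also did not overlap, with a background of 20% and a log2 fold change of 1.04 ± 0.85 (adjusted p = 0.9997). The Control male level rests on 2 UMIs. Free RNA was an estimated 10.8, 13.6, 17.2 and 13.5% of the UMIs of this class in Control female, Control male, LPS male and LPS female. CALB1 in free RNA was at 121.8, 28.8, 51.3 and 165.2 CPM, and its part in these levels was not tested.

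The genes around the members were described with 3 lists. As with the members, the lists were chosen with earlier results of these data known. The filter also keeps a list gene that reaches the minimum in Purkinje sums alone. The counts of list genes called are therefore a description. Of 18 genes of IP3 signalling, 16 were tested between Purkinje nuclei and molecular layer interneurons; 10 were called higher and 2 lower, with a median log2 fold change of 2.33, where 16.3% of all genes were called higher and 16.6% lower. ITPKA, a kinase that phosphorylates IP3, was at 146.2, 506.4, 496.7 and 142.2 CPM in Purkinje nuclei and had 414 UMIs there against 3 in all molecular layer interneurons, a ratio of levels of 142.0 with an exact 95% counting interval of 48.3 to 691.4. PRKG1, cGMP-dependent protein kinase 1, which acts on PPP1R17, was higher by 6.22 ± 0.47.

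GUCY1A1, a subunit of the cGMP-making guanylate cyclase, had no UMI in Purkinje nuclei. Against a floor of 3 UMIs over the 4 libraries it was at least 97.7-fold lower than in Golgi cells, where 323 UMIs were counted, and at least 11.01-fold lower than in molecular layer interneurons. HOMER3, a scaffold protein that binds ITPR1, had 106 UMIs in Purkinje nuclei and none in Golgi cells, which makes it at least 38.9-fold higher. Of the same list, 16 genes were tested in each comparison. Against Golgi cells 12 were called higher and 3 lower, where 15.9% of all genes were called higher and 16% lower. Against PAX2+ interneurons 12 and 1 were called, with 24.9 and 26.5% of all genes. Against unipolar brush cells 9 and 4 were called, with 15.3 and 12.6%, and against the granule lineage 10 and 3, with 27.3 and 29.4%.

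The calcium store and membrane transport list had no common direction. Of 20 genes, 15 were tested against molecular layer interneurons, with 6 called higher and 5 lower and a median log2 fold change of −0.19, where 16.3% of all genes were called higher and 16.6% lower. ATP2A3, a pump that refills the store, was higher by 2.38 ± 0.23 and reached 217.7, 181.6, 586.3 and 137.8 CPM. RYR3 was lower by 3.75 on the log2 scale (−3.75 ± 0.50), at 29.1 ± 4.5 in Purkinje nuclei against 298.6 ± 109.4, and ATP2B1, a calcium pump of the cell membrane, was lower by 3.37 (−3.37 ± 0.23). ATP2B4, another such pump, had 18 UMIs in Purkinje nuclei and 1 in molecular layer interneurons, a ratio of 18.5 (2.92 to 771.7). RYR2 was called higher as well, at 695.3 ± 65.3 against 347.7 ± 70.0, with a log2 fold change of 1.04 ± 0.24.

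Of 18 other calcium-binding genes, 14 were tested against molecular layer interneurons, with 5 called higher and 4 lower and a median of −0.03, in the same comparison with 32.9% of all genes called in either direction. HPCAL1, a neuronal calcium sensor, was higher by 2.57 ± 0.23, and NRGN, which binds calmodulin as PCP4 does, by 2.37 ± 0.56. VSNL1 and HPCAL4, from the same family of sensors as HPCAL1, were lower, at −3.64 ± 0.66 and −2.87 ± 0.56. Between mature granule cells and proliferating precursors, 9 of the 14 tested genes of this list were called higher and 2 lower, and 11 of the 15 tested genes of the store and membrane list were called higher and 1 lower, where 59.9% of all genes were called, 30.9% higher and 29% lower. The single store and membrane gene that fell was ATP2A3 (−1.61 ± 0.29). Of the 16 tested genes of IP3 signalling, 8 were called higher and 4 lower between these stages. LPS against Control gave no call in any list and class.

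**Figure D5:**
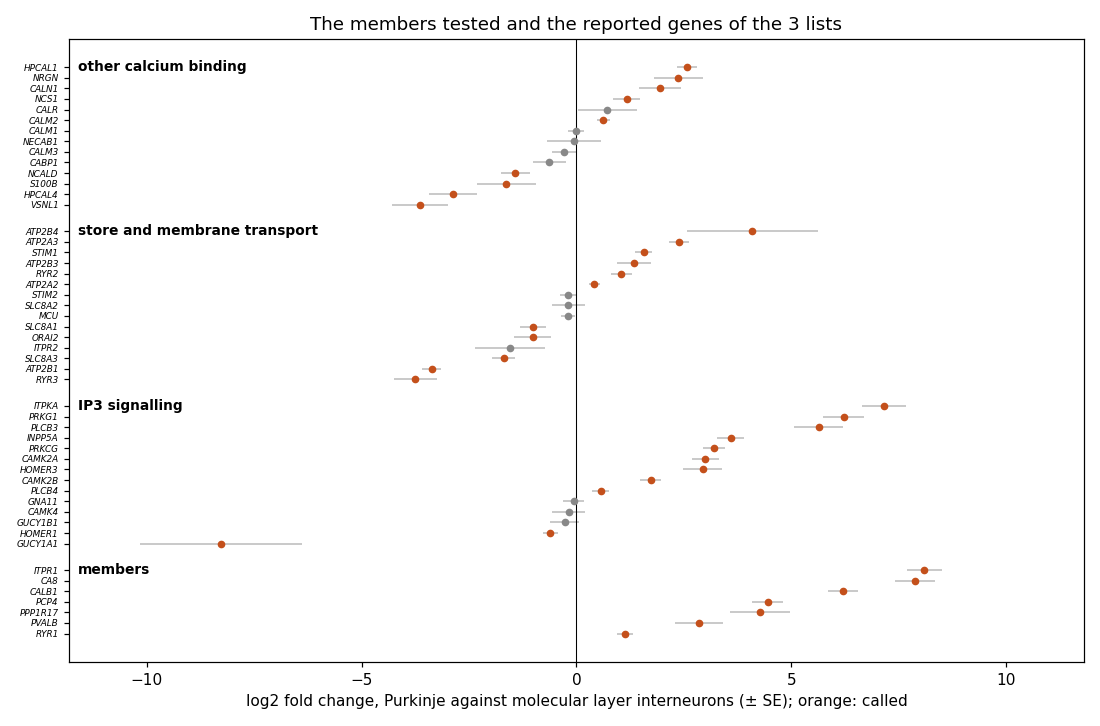
Log2 fold change (± SE) of Purkinje nuclei against molecular layer interneurons for the 7 members tested and the tested genes of 3 lists that are reported here, with called genes in orange. The members lie right of 0 from RYR1 at 1.13 to ITPR1 at 8.10, most genes of IP3 signalling lie right of 0, and the other lists fall on both sides; GUCY1A1 had no UMI in Purkinje nuclei, so its plotted value depends on the fit.

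Genes with the pattern most like that of each member were sought among 10329 genes with a symbol over 40 sums, from 10 neuronal classes and stages in 4 fetuses, by Pearson's r of log2 levels. The sums share libraries, so r is a description. ITPR1 was closest to FOXP4 (r = 0.894), SKOR2 (0.891) and COL4A2 (0.886). CA8 was closest to SKOR2 (0.853), ARHGAP26 (0.840) and COL4A1 (0.839), and CALB1 to NRK (0.864), SESTD1 (0.855) and KLHL1 (0.854). PCP4 was closest to another member, CALB1 (0.850), before TMEM64 (0.847) and NRK (0.831). PVALB was closest to ALDOC (0.760), PCP2 (0.745) and COL4A2 (0.696). RYR1 followed PITPNM3 (0.897), EEPD1 (0.873) and ELFN2 (0.871), and PPP1R17 followed ADGRV1 (0.845), C8orf82 (0.839) and CD58 (0.831). For CALB2, with 1.28 CPM on average, the highest values were 0.614 (NTNG2) and 0.609 (PLCB4).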

How the data were processed

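Nuclei of 4 fetal cerebella were sequenced with 10x 3' chemistry, 1 library per fetus. Per the labels, the authors mapped reads to Mmul_8.0.1 with introns included and deposited raw UMI counts for every barcode; the protocol names Cell Ranger 5.0 and the processing notes Cell Ranger 4. Groups came from the labels. The members and gene lists were chosen with earlier results of these data known. Nuclei were integrated and clustered (Seurat 5.3.0, 2000 features, 30 dimensions, resolution 0.5, R 4.3.3). A cluster took the class with the highest mean marker difference. Named were the 8 members, up to 4 called genes per list with the largest change (others were chosen after their values were seen), and the 3 closest genes by r. UMIs were summed per class and fetus, for classes of at least 5 nuclei, filtered by filterByExpr and tested with edgeR 4.0.16 (TMM, quasi-likelihood, Benjamini-Hochberg over all genes); class comparisons had the fetus as a block, since classes of 1 fetus share an animal, and LPS comparisons had none. The SE of an edgeR fold change was its absolute value divided by the square root of F. Genes were called at an adjusted p under 0.1 and a log2 fold change over 0.25. DESeq2 1.42.0, RLE, no filter, other nuclei, doublets removed (Scrublet, scanpy 1.11.5; its threshold failed in both male libraries and the median of the others was used), free RNA subtracted and marker-score classes were alternatives. Doublets were kept, and 2 of the 118 Purkinje nuclei were called doublets. The scripts were tested on simulated data. The depth per library and the number of nuclei set the precision; with 2 fetuses per group, an exact permutation test could not pass the limit. Sequences and positions of the genes were not analysed here, and some genes of the lists are not reported here by name.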

Additional observations from a re-analysis of the deposited data

Results flagged for a closer look

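RYR1 in Purkinje nuclei differed between the LPS and the Control fetus in opposite directions in the sexes: LPS minus Control was −0.56 in females and 0.51 in males on the log2 scale. It was singled out because its only pair of fetuses of each sex differed by more than 0.25 in opposite directions, with at least 10 UMIs in each library. The difference was not tested, since each sex has 1 fetus per group. It was not particular to Purkinje nuclei: RYR1 in molecular layer interneurons gave −0.48 in females and 0.64 in males. In the other neuronal classes compared, the signs of RYR1 agreed between the sexes. The other members either kept 1 direction, differed by less, or had fewer UMIs. Groups of 2 fetuses are too small to look for a library far from the others.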

How the results depend on the processing

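With 2 fetuses per group and 15 to 54 Purkinje nuclei in a library, only large changes with LPS could be seen, and PVALB, PPP1R17 and CALB2 were limited by their UMIs. No member was called for LPS against Control in any class under any alternative run. The number of genes called in Purkinje nuclei rose from 0 to 4 without the filter on low counts and to between 1 and 12 when a fetus was left out, which leaves a group of 1 that is assumed to vary like the other; the cause was not tested. The same settings called up to 49 genes in PAX2+ interneurons (without Control female), 7 in Golgi cells (without LPS male), 7 in molecular layer interneurons (without Control male) and 4 in unipolar brush cells (without Control male), where the replicate block by sex called 1. Members called between mature granule cells and proliferating precursors rose from 3 to 5 with free RNA subtracted and to 5 without the filter. Without Control male 3 members were called higher and 1 lower in that comparison. CALB2 was called lower in Purkinje nuclei than in unipolar brush cells only without the filter. Leaving out each fetus gave log2 fold changes of LPS against Control in Purkinje nuclei between −0.49 and 0.29 for CALB1, −0.51 and 3.58 for PVALB, −0.19 and 0.29 for ITPR1, −1.41 and 0.49 for CA8, −2.61 and 1.43 for PPP1R17, −0.23 and 0.65 for PCP4, and −1.41 and 1.02 for RYR1. ITPR1 also turned to −0.32 with marker-score classes, −0.0185 with free RNA subtracted and −0.0668 without the filter. PCP4 and RYR1 turned to −0.0394 and −0.25 with marker-score classes. The replicate block by sex turned RYR1 to −0.0696 and changed no call of a member. In the granule comparison ITPR1 turned to −0.0249 with DESeq2, and leaving out each fetus gave −0.24 to 0.35. None of these values was called. Without the fetus as a replicate block, the calls of PVALB (2.62) and RYR1 (1.13) against molecular layer interneurons were lost, and no other call of a member between Purkinje nuclei and another class changed where the member could be tested. PVALB and PPP1R17 failed the filter with marker-score classes, and PVALB without LPS male. Marker-score classes gave no granule stages and no sum of all nuclei, so those were not run.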

Other observations

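UMIs of some members were also counted outside neurons. PPP1R17 was at 94.5, 77.1, 108.2 and 84.8 CPM in astrocytes of Control female, Control male, LPS male and LPS female, and astrocytes, 4.53% of nuclei, held 24.6% of its UMIs in nuclei. Free RNA held 36.9, 10.8, 19.3 and 48.1 of it and made up an estimated 12.4, 22.8, 36.3 and 13.7% of the UMIs of astrocytes. CA8 was at 150.2, 64.3, 37.0 and 97.3 in oligodendrocytes with an estimated 17.3, 17.3, 22.6 and 8.28% of their UMIs from free RNA, where CA8 was at 26.0, 54.0, 26.0 and 22.5. In Bergmann glia, the glia that surround Purkinje cells, CA8 was at 50.0, 25.9, 7.63 and 48.9 with 15.8, 20.3, 31.7 and 15.3% free RNA. Of the Bergmann glia nuclei, 20.3% were called doublets. The share of free RNA was estimated from non-neuronal markers, including markers of these glia. For all nuclei together, a mixture of classes, the same estimate was 45.6, 80.5, 74.7 and 41.6%. The part of free RNA in these levels was not tested. ITPR1 was at 182.9 ± 40.8 in fibroblasts and 501.7 ± 129.1 in endothelial mural cells (SD, n = 4), the latter from 46 UMIs in 30 nuclei. None of these was compared by a test.

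The unnamed cluster of 2461 nuclei of low depth had 169.2, 89.4, 72.6 and 111.6 CPM of CALB1, above every named neuronal class other than Purkinje nuclei in each library, and 44.0, 0, 41.5 and 18.6 of PVALB. Free RNA made up an estimated 71.4, 50.7, 87.2 and 57.1% of its UMIs. Free RNA itself held 121.8, 28.8, 51.3 and 165.2 CPM of CALB1 and 27.4, 4.8, 38.6 and 12.8 of PVALB. CALB1 in the cluster lay above free RNA in Control female, Control male and LPS male and below it in LPS female. The Control male level rests on 6 UMIs. Whether these UMIs belong to the nuclei was not tested. The leading genes of the cluster included ribosomal protein genes and CHGB, and no marker of a named class was among the first 10. In barcodes with fewer than 500 genes, CALB1 was at 254.3, 40.4, 71.2 and 328.9.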
